A study of Homo sapiens with 6 samples.

Results

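Expression of 9 genes of MHC class I antigen presentation was examined in RPMI-8402 cells: the heavy chain genes HLA-B, HLA-C, HLA-E and HLA-F, the light chain gene B2M, the peptide transporter genes TAP1 and TAP2, the tapasin gene TAPBP and the transactivator gene NLRC5. They were chosen by name, as the probes whose RefSeq accession in the scanner files belongs to these symbols. They are 9 of the 19722 genes with a matched probe and of the 14491 genes that were tested. The array carried 15 probes for them in 19 spots, of which 14 probes, covering all 9 genes, were bright enough to test and 13 were well above background on all 6 arrays.

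RPMI-8402 is a cell line established from a human T-cell leukaemia of the acute lymphoblastic kind. Cells of all 3 groups were transduced and profiled 48 h later. They received a control short hairpin RNA (control), a hairpin against GATA3 (shGATA3) or a hairpin against TCF7, which encodes TCF1 (shTCF1). For the control and GATA3 hairpins the paper names lentiviral vectors that carry EGFP, a green fluorescent protein. It names no vector for the TCF7 hairpin. Sorting of transduced cells is described there for cord blood cells and thymocytes, and is not stated for RPMI-8402. RNA of 2 independent experiments per group was measured on 1-colour Agilent arrays, 1 array per sample. The comparisons ask how expression changes when either T-lineage transcription factor is lowered, in a leukaemia line and with a knockdown, not a deletion.

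MHC class I molecules show short peptides from inside the cell to CD8+ T cells. Peptides cut by the proteasome, or by its interferon-inducible form the immunoproteasome, are pumped into the endoplasmic reticulum by the transporter TAP, which is built from TAP1 and TAP2. There tapasin, the product of TAPBP, helps to load them onto a heavy chain paired with beta-2 microglobulin, and NLRC5 acts in the nucleus on the shared promoter elements of these genes. HLA-E also serves as the ligand of an inhibitory receptor on natural killer (NK) cells, and thymocytes and T cells carry class I at their surface.

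The promoters of these genes are shown because the elements they share are the ones through which the family is known to be controlled together. RefSeq promoter sequences of GRCh38.p14 matched 7 of the 9 genes, with 8 promoters in all since TAP1 has 2 starts. HLA-E and NLRC5 had no entry. Below are the 250 bases before the start of HLA-B (chr6:31357180-31357429, minus strand), HLA-C (chr6:31272093-31272342, minus strand), B2M (chr15:44711267-44711516, plus strand) and the upstream start of TAP1 (chr6:32853705-32853954, minus strand), written 5′ to 3′ along the gene. Capitals mark every match, on either strand, to CCAAT, to its longer form CCAATCAG, to AANNGAAA and to the letters searched for GATA3 and TCF1.
HLA-B: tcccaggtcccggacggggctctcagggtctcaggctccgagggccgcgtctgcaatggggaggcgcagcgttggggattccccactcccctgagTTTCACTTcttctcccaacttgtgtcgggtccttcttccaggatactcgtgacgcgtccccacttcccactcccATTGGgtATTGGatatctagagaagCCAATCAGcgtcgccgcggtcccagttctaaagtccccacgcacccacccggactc
HLA-C: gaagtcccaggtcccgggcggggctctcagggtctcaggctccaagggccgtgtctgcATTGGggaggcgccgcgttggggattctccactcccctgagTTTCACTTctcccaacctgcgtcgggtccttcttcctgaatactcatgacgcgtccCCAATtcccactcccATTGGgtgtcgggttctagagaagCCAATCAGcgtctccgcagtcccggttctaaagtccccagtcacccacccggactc
B2M: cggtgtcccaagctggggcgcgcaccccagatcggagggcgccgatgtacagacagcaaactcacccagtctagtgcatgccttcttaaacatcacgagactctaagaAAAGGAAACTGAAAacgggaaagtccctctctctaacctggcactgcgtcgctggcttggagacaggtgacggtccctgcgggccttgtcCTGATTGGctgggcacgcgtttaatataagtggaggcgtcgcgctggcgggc
TAP1: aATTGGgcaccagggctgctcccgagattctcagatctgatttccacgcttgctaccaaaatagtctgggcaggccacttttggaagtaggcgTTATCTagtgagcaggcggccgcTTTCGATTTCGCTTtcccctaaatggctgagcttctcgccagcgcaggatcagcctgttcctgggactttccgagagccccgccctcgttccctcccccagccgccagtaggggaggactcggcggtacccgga

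CCAATCAG is a longer form of CCAAT, to which the factor NF-Y binds. It began 56 bases before the start in HLA-B and in HLA-C and 57 bases before it in HLA-F. B2M held CCAATCAG on the other strand, 52 to 45 bases before its start. CCAATCAG occurred in 4 of the 8 promoters and in 3.81% of all 35116 promoters of the same length. Each of its matches is also a match to the shorter CCAAT, which stood in 5 of the 8 promoters and in 32.0% of all. AANNGAAA, the core that interferon regulatory factors recognize, stood in 7 of the 8 promoters (20.3% of all). It was missing only from the downstream start of TAP1, and B2M, TAP2, TAPBP and the upstream start of TAP1 each held a pair of overlapping copies. For GATA3 the letters searched were AGATAA or its variant TGATAA, and likewise those that end in G instead, AGATAG or its variant TGATAG. The upstream TAP1 promoter held AGATAA and that of TAP2 held TGATAA, and 22.3% of all promoters held any of the 4. For TCF1 the letters searched were CTTTGTT or its variant CTTTGAT. The latter was found in the downstream TAP1 promoter, and either of them in 6.60% of all promoters. These matches describe the letters of the windows, and binding was not measured here.

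The hairpin groups were first checked on the targeted genes. TCF7 was 13.96 and 13.91 on the control arrays and 12.58 and 12.68 on the shTCF1 arrays (normalized log2 intensity), a fall of 1.31 on the log2 scale (adjusted p = 0.00393, limma), and the second TCF7 probe fell by 1.48 (adjusted p = 0.00462). GATA3 was not lower in the group labelled shGATA3, where it was 9.46 and 9.55 against 9.54 and 9.56 on the control arrays (log2 difference -0.05, adjusted p = 0.795). These arrays are therefore called the arrays labelled shGATA3. The 3 T-lineage markers CD3D, CD7 and LCK were well above background on all arrays, as were 14 of 15 T-cell markers. Among markers of other cells, NKG7, NCR1 and NCR3 were above background on all arrays while KLRD1, KLRF1 and PRF1 were above it on none, and 4 of 7 B-cell markers, MS4A1 among them, were above it on all. Against control, CD2 fell by 0.47 on the arrays labelled shGATA3 and fell by 2.19 on the shTCF1 arrays (adjusted p = 0.0439 and 0.00199), and CD4, CD3G and BLK rose by 0.89, 0.63 and 0.47 on the shTCF1 arrays (adjusted p = 0.00774, 0.037 and 0.0425). Before normalization the 75th percentile of intensity was 270 and 287 on the control arrays and 165 to 179 on the other arrays. All arrays were on 1 slide, with both control arrays in one of its rows and the 4 hairpin arrays in the other, so row and hairpin against control cannot be told apart. The shGATA3 and shTCF1 arrays share a row.

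The heavy chains are the part of the class I molecule that holds the peptide. HLA-E, the ligand of the NK receptor CD94-NKG2A, was 11.53 on either control array, 11.58 and 11.85 on those labelled shGATA3 and 11.97 and 12.09 on the shTCF1 arrays. Every shTCF1 value was above every other value, and the values labelled shGATA3 lay between the groups. On the shTCF1 arrays HLA-E was 1.41-fold higher than on the control arrays (log2 difference 0.50, 95% interval 0.19 to 0.81, adjusted p = 0.0475). It was the only one of the 9 genes that passed the threshold in any of the 3 comparisons as reported. The difference was 0.19 for the arrays labelled shGATA3 (interval -0.12 to 0.50, adjusted p = 0.390), and the direct difference of the latter from shTCF1 was -0.31 (interval -0.62 to -0.0016, adjusted p = 0.212). The HLA-E call was close to the threshold. It held under 8 of 15 other settings applied to the scanner files, with adjusted p from 0.00692 to 0.185, and it was lost on leaving out any 1 of the 4 control and shTCF1 arrays, while the log2 difference stayed between 0.44 and 0.56. The summed intensity of 7 myeloid markers was also highest on the shTCF1 arrays, at 1469 and 1479 against 1079 and 1082 on the control arrays and 1060 and 1184 on those labelled shGATA3. Of these markers 4 were above background on all arrays. FCER1G, the brightest of the 7 and so the largest part of the sum, rose by 0.59 on the shTCF1 arrays (adjusted p = 0.0204, limma). There the log2 difference was 0.45 for TYROBP (adjusted p = 0.0524), 0.03 for CD14 and 0.08 for ITGAM. FCGR3A was above background on none, and CD163 on no shTCF1 array. CSF1R was above it on no control array and on 1 shTCF1 array. The sums of the T-cell, B-cell, NK-cell and non-blood markers did not have both shTCF1 arrays above all others. For the B-cell markers the sum was 7695 and 4080 on the control arrays and 6725 and 7267 on the shTCF1 arrays. The part of the myeloid markers in the HLA-E result was not tested. In bulk cells more cells with a transcript and more of it per cell cannot be told apart.

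HLA-C, a classical heavy chain that also binds the KIR receptors of NK cells, was 13.20 and 13.12 on the control arrays, 13.29 and 13.48 on those labelled shGATA3 and 13.50 and 13.67 on the shTCF1 arrays. The 3 groups did not overlap, and again the shTCF1 values were the highest. The log2 difference was 0.43 for shTCF1 (1.35-fold, interval 0.14 to 0.72, adjusted p = 0.0591) and 0.23 for the arrays labelled shGATA3 (interval -0.06 to 0.52, adjusted p = 0.279). Neither passed the threshold. HLA-B, the other classical heavy chain gene of the list, was 13.13 and 13.08 on the control arrays, 13.18 and 13.26 on those labelled shGATA3 and 13.35 and 13.50 on the shTCF1 arrays at its brighter probe. The order of the groups was that of HLA-C and HLA-E, with no overlap. Its log2 difference was 0.32 for shTCF1 (1.25-fold, interval 0.06 to 0.58, adjusted p = 0.0893) and 0.12 for the arrays labelled shGATA3 (interval -0.14 to 0.38, adjusted p = 0.520). The dimmer HLA-B probe was 12.87 and 12.70, 12.72 and 12.95, and 13.03 and 13.19 on the arrays of the 3 groups in the same order. It gave nearly the same difference for shTCF1 (0.33, adjusted p = 0.140), while the arrays labelled shGATA3 overlapped the control arrays (0.05, adjusted p = 0.848). Under other settings HLA-C was called for shTCF1 in 3 and HLA-B in 2 of 15, and in neither gene did the direction turn in any of the 15.

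HLA-F, a nonclassical heavy chain, did not show this order. Its brighter probe was 12.57 on either control array, 12.66 and 12.74 on those labelled shGATA3 and 12.57 and 12.83 on the shTCF1 arrays. One shTCF1 array lay at the control level and the other above all arrays, so those groups overlapped. Both log2 differences from control were 0.13 (adjusted p = 0.530 for the arrays labelled shGATA3 and 0.479 for shTCF1), and the hairpin groups differed by -0.00013 (interval -0.30 to 0.30). The second HLA-F probe, made for another transcript, was 7.30 and 7.52 on the control arrays, 7.40 and 7.53 on those labelled shGATA3 and 7.30 and 7.53 on the shTCF1 arrays, with all groups overlapping. The heavy chain genes are near-identical over long stretches and differ between people, so their probes may share signal with each other and their values are not independent.

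B2M, the light chain gene, was not higher on the hairpin arrays. B2M, read from 5 spots of its probe, was 14.78 on either control array, 14.67 and 14.71 on those labelled shGATA3 and 14.56 and 14.76 on the shTCF1 arrays. All hairpin arrays were below both control arrays, by little. The log2 differences were -0.09 (interval -0.36 to 0.18, adjusted p = 0.630) for the arrays labelled shGATA3 and -0.12 (interval -0.39 to 0.15, adjusted p = 0.465) for shTCF1, neither past the threshold. On the shTCF1 arrays the interval of B2M thus ends at 0.15, and that of HLA-E begins at 0.19, though the difference between the 2 genes was not tested. With each gene centred on its mean over the 6 arrays, the mean of the 4 heavy chain genes was -0.15 and -0.19 on the control arrays and 0.09 and 0.26 on the shTCF1 arrays. B2M was 0.07 on either control array and -0.15 and 0.05 on the shTCF1 arrays.

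**Figure D1:**
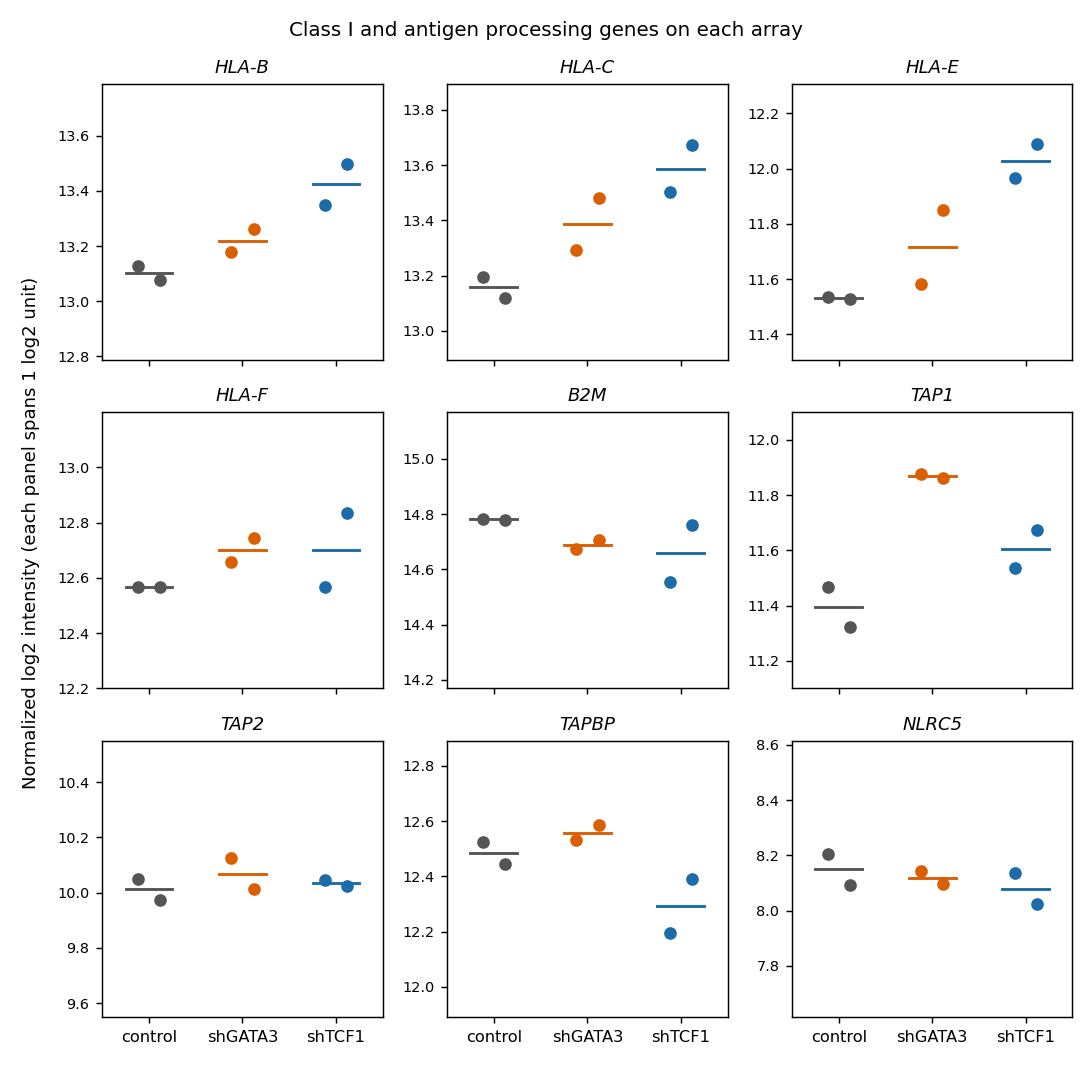
Normalized log2 intensity of the 9 genes on each of the 6 arrays, 1 panel per gene at its brightest tested probe, with 2 points per group (one for each array) and a line at the group mean. Each panel spans 1 log2 unit, so distances can be compared between panels but heights cannot. HLA-B, HLA-C and HLA-E step up from control to shGATA3 to shTCF1, TAP1 is highest on the arrays labelled shGATA3 (11.88 and 11.86), and TAP2 and NLRC5 overlap in every comparison.

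Of the peptide transporter subunits, TAP1 differed most from control on the arrays labelled shGATA3. It was 11.47 and 11.32 on the control arrays, 11.88 and 11.86 on those labelled shGATA3 and 11.53 and 11.67 on the shTCF1 arrays. The arrays labelled shGATA3 were the highest, the control arrays the lowest, and no groups overlapped. The level labelled shGATA3 was 1.39 times that of control (log2 difference 0.48, interval 0.21 to 0.74), with an adjusted p of 0.0592 that missed the threshold. It was called under 4 of 15 other settings, with a log2 difference of 0.40 to 0.55 and adjusted p from 0.00926 to 0.226 over all 15. For shTCF1 the difference was 0.21 (interval -0.06 to 0.48, adjusted p = 0.228), and between the hairpin groups it was 0.27 (interval -0.0020 to 0.53, adjusted p = 0.216). GATA3 itself was not lower there than on the control arrays at its 1 probe, so the TAP1 values describe those arrays by their label.

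TAP2, the partner subunit, stayed within 9.98 and 10.12 on all 6 arrays at its main probe. It was 10.05 and 9.98 on the control arrays, 10.12 and 10.01 on those labelled shGATA3 and 10.05 and 10.02 on the shTCF1 arrays, and all groups overlapped. Its log2 differences from control were 0.06 (interval -0.19 to 0.30, adjusted p = 0.753) and 0.02 (interval -0.22 to 0.27, adjusted p = 0.885). The second TAP2 probe, for another transcript, was well above background on both control arrays, on 1 array labelled shGATA3 and on neither shTCF1 array, and no fold is given for it.

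TAPBP was read by 3 probes, whose differences for shTCF1 had different signs. The brightest was 12.52 and 12.44 on the control arrays, 12.53 and 12.58 on those labelled shGATA3 and 12.20 and 12.39 on the shTCF1 arrays, so that the shTCF1 arrays were the lowest. Its log2 difference was -0.19 for shTCF1 (interval -0.46 to 0.09, adjusted p = 0.278) and 0.07 for the arrays labelled shGATA3 (interval -0.20 to 0.35, adjusted p = 0.707). The second probe, for another TAPBP transcript, was 9.55 and 9.47 on the control arrays, 9.76 and 9.80 on those labelled shGATA3 and 9.70 and 9.73 on the shTCF1 arrays. Here both hairpin groups were above the control arrays (log2 differences 0.27 and 0.20, adjusted p = 0.153 and 0.197). The third probe gave 0.18 and -0.06 (adjusted p = 0.368 and 0.716). None of the 3 passed the threshold, and the direction for shTCF1 depends on the probe.

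NLRC5, the class I transactivator, was 8.21 and 8.09 on the control arrays, 8.14 and 8.10 on those labelled shGATA3 and 8.14 and 8.02 on the shTCF1 arrays, with all groups overlapping. Its log2 differences were -0.03 (interval -0.29 to 0.23, adjusted p = 0.882) and -0.07 (interval -0.33 to 0.19, adjusted p = 0.664). They turn sign with the scaling of the arrays, to 0.038 and 0.0063 under quantile normalization. A second NLRC5 probe was well above background on 1 control array and on no hairpin array, and was not tested.

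Counted over the 9 genes, 0 were called for the arrays labelled shGATA3 against control, where 6.93% of all tested genes were called by limma, and 1 of the 9 (TAP1) had an unadjusted p below 0.05. For shTCF1 against control, 1 of 9 (HLA-E, higher) was called against 16.2% of all genes, and 3 had an unadjusted p below 0.05 (HLA-B, HLA-C and HLA-E). Between the arrays labelled shGATA3 and shTCF1, 0 of 9 were called against 6.58% of all genes, and 1 (HLA-E) had an unadjusted p below 0.05. The shares called are thus no higher among the 9 genes than over all genes. An unadjusted p below 0.05 (limma) was also common over all probes, at 8257, 10909 and 7297 of 31134 tested in the 3 comparisons. The 2 groups did not overlap in 7 of 9 genes for the arrays labelled shGATA3 against control (6 higher, 1 lower), beside 63.0% of all genes. They did not overlap in 6 of 9 for shTCF1 against control (4 higher, 2 lower), beside 69.2%, and in 5 of 9 for the direct comparison (2 higher, 3 lower), beside 53.4%. The median log2 difference of the 9 genes was 0.12, 0.13 and 0.03 in the 3 comparisons, and that of all tested genes -0.03, -0.05 and 0.0035. The 2 control arrays served both hairpin groups. The half-width of a 95% interval ran from 0.25 to 0.31 on the log2 scale, so smaller differences could not be told from 0 with 2 arrays per group.

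**Figure D2:**
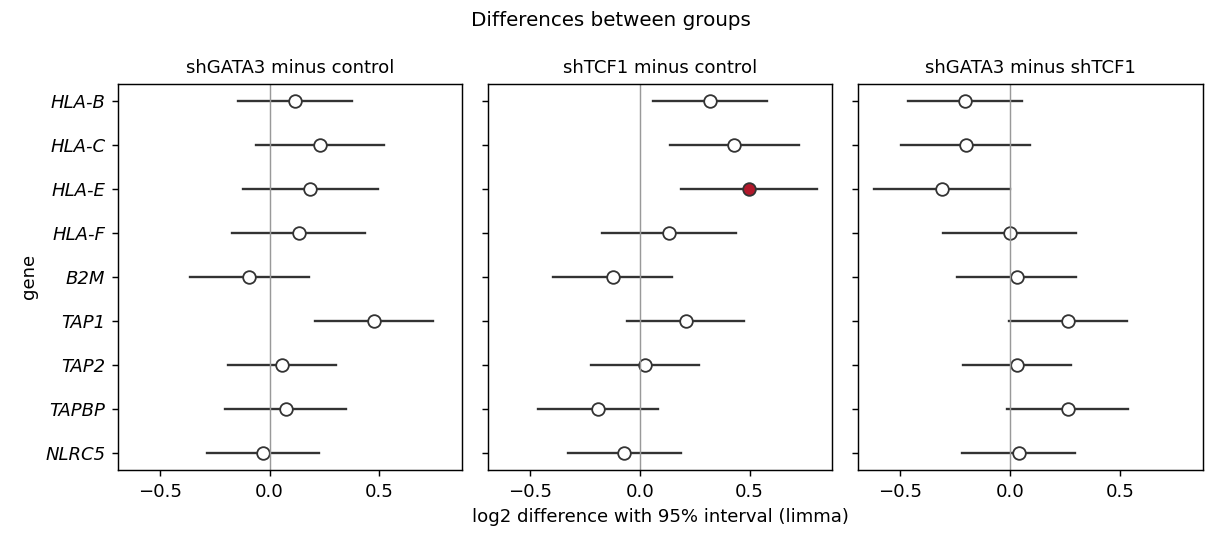
Log2 difference of each of the 9 genes in the 3 comparisons (horizontal axis), with points at the limma estimate and bars for the 95% interval from the fit over 6 arrays, 2 per group. A filled point has an adjusted p below 0.05, which holds for HLA-E in shTCF1 minus control, and the intervals of HLA-B and HLA-C there and of TAP1 in shGATA3 minus control lie above 0 without passing after adjustment.

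Genes outside the 9 that most resembled the heavy chains over the 6 arrays were HLA-J, RPL37A, MSRB1, RPL26 and HBG1, by the root mean square difference between their centred values and the mean of the 4 heavy chain genes, among 13376 genes. HLA-J, a class I pseudogene, was the nearest at 0.0219, and was -0.12 and -0.18 on the control arrays, -0.09 and 0.04 on those labelled shGATA3 and 0.10 and 0.24 on the shTCF1 arrays. RPL37A and RPL26 encode ribosomal proteins and HBG1 a fetal globin chain. The other 4 lay at 0.0239 to 0.0293. The heavy chain genes themselves lay at 0.0307 for HLA-B, 0.0392 for HLA-C, 0.0769 for HLA-E and 0.0993 for HLA-F, and B2M and TAP1 lay at 0.195. The 5 genes were picked for the smallest distance among 13376, so their lying nearer than the heavy chain genes is not a result. With 6 arrays in 3 groups this is a description of the pattern.

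The rest of the class I pathway was described by 56 genes chosen for their role, of which 52 were tested. For the arrays labelled shGATA3 against control 5 were called, beside 6.93% of all tested genes, for shTCF1 against control 11, beside 16.2%, and between the hairpin groups 3, beside 6.58%. Some of these genes passed the filter only through the groups in which they were well above background, which favours genes that differ. Among genes well above background on every array of both groups compared, 3 of 47 were called for the arrays labelled shGATA3 (1 higher, 2 lower), beside 6.48% of all such genes. For shTCF1 9 of 46 were called (3 higher, 6 lower), beside 15.9%. Between the hairpin groups limma called 0 of 45, beside 6.0%, and 11 had an unadjusted p below 0.05, as did 7297 of all 31134 tested probes. Nothing particular to the pathway is read from these shares. The median log2 differences of these genes were 0.09, 0.07 and 0.09. In a fit without 1 array a group holds only 1, which alone can lower the number of calls. Whether particular arrays drove the calls was not tested. On leaving out each of the 6 arrays in turn, the calls for the arrays labelled shGATA3 numbered 1 to 3 of the 52, with ULBP1 among them each time but without shGATA3 replicate 2. Those for shTCF1 numbered 2 or 3 without any 1 control or shTCF1 array and 7 or 8 without an array labelled shGATA3, with ULBP1 among them each time.

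Of 11 proteasome genes 1 was called in each comparison with control, beside 6.93% and 16.2% of all tested genes. PSMB10, a catalytic subunit of the immunoproteasome, was 13.53 and 13.58 on the control arrays, 14.32 and 14.36 on those labelled shGATA3 and 13.81 and 13.92 on the shTCF1 arrays. It rose by 0.79 on the log2 scale (1.72-fold) on the arrays labelled shGATA3 (adjusted p = 0.0139), and its differences of 0.31 for shTCF1 and 0.48 between the hairpin groups missed the threshold (adjusted p = 0.0886 and 0.0503). The call was lost without control replicate 1 and without either array labelled shGATA3. The other immunoproteasome subunits did not pass: PSMB8 had 0.35 and 0.14 and PSMB9 0.08 and -0.28 in the comparisons with control, and PSMB9 lies beside TAP1 in the genome. POMP, a chaperone of proteasome assembly, fell by 0.56 on the log2 scale on the shTCF1 arrays (adjusted p = 0.0175).

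Beside 6.93% and 16.2% of all tested genes, 0 of 12 genes of peptide trimming and loading were called for the arrays labelled shGATA3 and 3 for shTCF1. There CALR, the chaperone calreticulin of the loading complex, rose by 0.46 (adjusted p = 0.0430), while LNPEP, an aminopeptidase of endosomes, fell by 0.96 (adjusted p = 0.0186) and LAP3, a cytosolic aminopeptidase, fell by 0.46 (adjusted p = 0.0347). Of 17 tested regulators 0 and 2 were called, beside the same shares. ATF1 and NFYB, whose products bind the X and Y boxes of class I promoters, fell by 0.54 and 0.38 on the shTCF1 arrays (adjusted p = 0.0292 and 0.0481). RFX5, which binds the same promoter module, had a difference of 0.39 there (adjusted p = 0.0568). IRF1, which carries interferon signals to these promoters, had a difference of 0.41 on the arrays labelled shGATA3 (adjusted p = 0.0850) and of 0.14 on the shTCF1 arrays (adjusted p = 0.422), neither called.

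Of 12 tested class I-like genes 4, 5 and 3 were called in the 3 comparisons, beside the same 6.93%, 16.2% and 6.58%. Among those well above background on every array of both groups, 2 of 8 and 3 of 8 were called against control, beside 6.48% and 15.9%. Between the hairpin groups limma called 0 of 7, beside 6.0%, and 0 had an unadjusted p below 0.05. ULBP1 and ULBP2, ligands of the NK receptor NKG2D, were lower on the hairpin arrays. ULBP1 fell by 1.07 on the arrays labelled shGATA3 and by 0.90 on the shTCF1 arrays (adjusted p = 0.00742 and 0.00828), and ULBP2 fell by 0.63 and 0.99 (adjusted p = 0.0449 and 0.00983), with ULBP2 well above background on only 1 of 2 shTCF1 arrays. HLA-G and FCGRT, a nonclassical heavy chain and the neonatal Fc receptor, rose by 0.49 and 0.46 on the shTCF1 arrays (adjusted p = 0.0301 and 0.0419). CD1B, HFE and CD1A, named after their values were seen, were not well above background in some groups. They passed the filter only through the groups in which they were well above background, which favours genes that differ. Their values are given as bounds with no test. CD1B, which presents lipids, was at least 2.80-fold higher in the group labelled shGATA3 than on control and at least 2.75-fold higher than on the shTCF1 arrays. HFE, a regulator of iron uptake, was at least 1.92-fold lower with the label shGATA3 than on control and at least 2.55-fold lower than on the shTCF1 arrays, and CD1A, a relative of CD1B, was at least 1.47-fold higher with the label shGATA3 than on the shTCF1 arrays. For shTCF1 against control CD1B was below background in both groups and has no fold. These bounds set a dim array at the lowest signal that was well above background there.

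Interferon response genes and class II genes were set beside the 9 genes because interferon and shared factors are known to act on both. Of 26 tested interferon response genes 2 were called for the arrays labelled shGATA3, 6 for shTCF1 and 3 between the hairpin groups. Of all tested genes 6.93%, 16.2% and 6.58% were called. The median differences of the list were 0.23, 0.06 and 0.11, beside -0.03, -0.05 and 0.0035 over all tested genes. GBP1 was well above background on both arrays in the control group alone and passed the filter only through it. Without this gene, 1, 5 and 3 of 25 were called. Of all genes well above background on every array of both groups, 6.48%, 15.9% and 6.0% were called. MX1 rose by 0.70 on the arrays labelled shGATA3 (adjusted p = 0.0304), and MX2, IFITM2, SAMHD1 and IFI6 rose by 0.84, 0.64, 0.60 and 0.56 on the shTCF1 arrays (adjusted p = 0.00762 to 0.0289). USP18 and GBP1, the remaining calls, were named after their values were seen. USP18, a negative regulator of interferon signalling, fell by 0.41 on the shTCF1 arrays (adjusted p = 0.0463), and GBP1, a guanylate-binding protein that interferon gamma induces, was at least 1.70-fold and at least 1.58-fold lower on the arrays of the 2 hairpin groups, not well above background on any of them, and has no test. Between the hairpin groups (shGATA3 minus shTCF1) IFI44 and ISG15 differed by 0.83 and 0.71, and for MX2 the difference was -0.62 (adjusted p = 0.0224, 0.0462 and 0.0202). Of 9 tested class II genes 1 and 2 were called against control, beside 6.93% and 16.2% of all tested genes. Of the 8 well above background on every array of both groups 1 was called in either comparison, beside 6.48% and 15.9%. HLA-DQB1 fell by 1.23 and 0.86 (adjusted p = 0.00755 and 0.0119), HLA-DPB1 was at least 1.301-fold higher on the shTCF1 arrays, through which alone it passed the filter, and the class II transactivator CIITA had differences of -0.06 and 0.05.

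**Figure D3:**
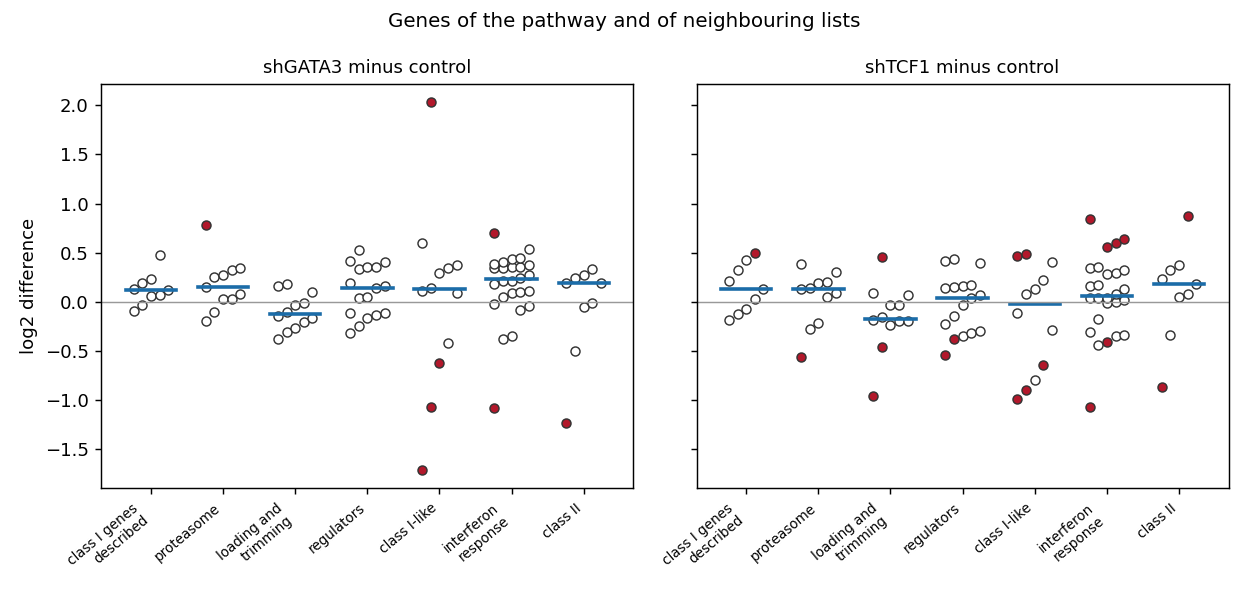
Log2 difference from control (vertical axis) of every tested gene in the 9 class I genes described, in 4 further lists of the class I pathway and in the interferon response and class II lists, for shGATA3 (left) and shTCF1 (right). Each point is a gene, filled where its adjusted p is below 0.05, and the blue line is the list's median, for the 9 genes 0.12 and 0.13. CD1B, at 2.03 on the left, is below background on the control arrays, so its point is not a measured fold. Points are likewise not measured folds for HFE on the left, CD1A, GBP1 and HLA-DPB1 on both sides and CD1B and CD1D on the right. Some further points rest on a group not well above background on both its arrays, ULBP2 on the right among them.

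**Figure D4:**
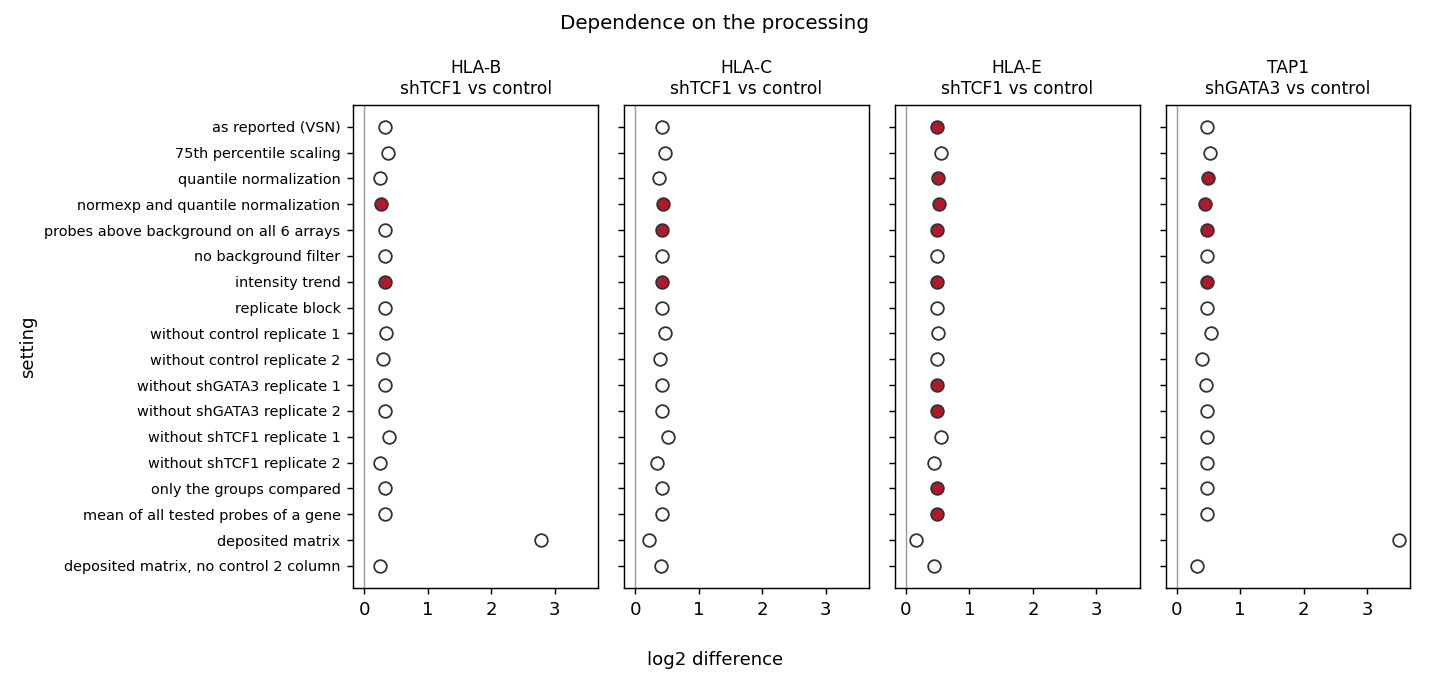
Log2 difference of the 4 genes nearest to or past the threshold (horizontal axis, 1 panel per gene and comparison) under each setting of the processing (vertical axis), filled where the adjusted p is below 0.05. Values from the scanner files stay close to those reported, at 0.44 to 0.56 for HLA-E, while the filling changes. The deposited matrix gives 2.78 for HLA-B and 3.51 for TAP1 with the column named for control replicate 2, which follows no array, and 0.24 and 0.32 without it.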

How the data were processed

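RNA of RPMI-8402 cells (3 groups, 2 arrays each) was hybridised to a custom 1-colour Agilent array. Per the file headers, the deposited intensity of each spot was made by Agilent Feature Extraction 10.7.1.1 (the submitters' processing notes name 9.1), background-subtracted and not scaled between arrays. A log2 matrix deposited by the authors, VSN-normalized by their methods, gave 1 value per probe. It served as an alternative, since the column named for control replicate 2 correlated at 0.760 with its own array and others followed the other array of their group. Its scale and centring were not stated, and the median of a column was 4.94 to 5.11. The scanner files name the build hg19, and none of their coordinates were used.

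Spots marked as outliers were left out, spots of a probe were averaged, and intensities were normalized in R 4.3.3 by a rewritten VSN (trimming quantile 0.9, 7 iterations, 5 strata), which gives values close to log2 at high signal. Probes were named through RefSeq accessions of GRCh38.p14, and 25729 of 57176 matched. Tested were the 31134 probes that in 1 or more groups were well above background on each array. limma 3.58.1 was fitted with a term for group and no other over the 6 arrays, with 3 residual and 2.97 prior degrees of freedom, and P values were adjusted over 31134 probes by Benjamini-Hochberg, with calls at an adjusted p below 0.05. A gene was represented by its tested probe of highest mean. With 2 arrays per group an exact two-sided permutation test cannot go below p = 0.333, so p-values rest on the spread pooled over probes. No spot (0) was saturated. The fit was checked on simulated data.

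The 9 genes and the gene lists were chosen with earlier results of these data known. Named besides the 9 were PSMB8, PSMB9, PSMB10, IRF1 and RFX5, up to 4 called genes of largest change per pathway, class II or interferon list and comparison if each array of the compared groups was well above background, and the 5 genes nearest to the heavy chains, of those in no list and above background on all 6 arrays. Exceptions are stated where they stand, and some genes of the rule are not reported here. The arrays gave 0 columns of sample values that were left unused. Alternatives were other scalings and background corrections, filters, variance models, a replicate block, other probe rules, the deposited matrix and leaving out each array.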

Additional observations from a re-analysis of the deposited data

How the results depend on the processing

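Replicate numbers did not pair the arrays: the differences between replicates 1 and 2 correlated at -0.04 (control with shGATA3), -0.01 and 0.05 over probes. With the replicate number as a block the calls among the 9 genes for shTCF1 went from 1 to 0 and those among the 52 other pathway genes from 11 to 6.

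Of 405 values of the 9 genes under scanner-file alternatives, 372 kept direction and side of the threshold, 9 newly passed, 7 (all HLA-E for shTCF1) no longer passed and 17 turned sign, none of these called. For the arrays labelled shGATA3 the count of called members went from 0 to 1 (TAP1) under quantile normalization, normexp with quantile normalization, the filter for all 6 arrays and an intensity trend. For shTCF1 it went from 1 to 0 under 75th percentile scaling, without a background filter and in the deposited matrix with or without the control replicate 2 column (the latter chosen after seeing the data), to 2 with the filter for all 6 arrays and to 3 with normexp or a trend. Leaving out an array gave 0 to 1 (0 without either control or either shTCF1 array).

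Among other pathway genes the 5 calls for shGATA3 became 3 under 75th percentile scaling, without a filter and with only the groups compared, 10 under normexp, 2 with the filter for all 6 arrays, 0 in the deposited matrix in both forms, and 1 to 3 without an array. The 11 for shTCF1 became 4 without a filter, 0 in the deposited matrix in both forms and 2 to 8 without an array. The 3 between hairpin groups became 5 under quantile normalization, 8 under normexp, 9 with a trend, 1 without a filter, 0 in the deposited matrix (2 without its control replicate 2 column) and 1 to 2 without an array. Of all probes called, 42.1% (shGATA3) and 42.6% (shTCF1) were higher, and 53.6% and 54.8% under 75th percentile scaling.

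Sign changes were small except in the deposited matrix, where NLRC5 was 1.504 (shGATA3) and 1.44 (shTCF1). There HLA-C was -0.015 and HLA-E -0.18 for shGATA3, and TAP2 was -0.055 for shTCF1. Without the control replicate 2 column these had the sign reported. NLRC5 was then -0.13 (shGATA3) and -0.19 (shTCF1), HLA-C 0.18 and HLA-E 0.10 for shGATA3, and TAP2 0.072 for shTCF1. B2M was -0.0058 between hairpin groups with or without that column. NLRC5 for shGATA3 was 0.022 under 75th percentile scaling and 0.038 under quantile normalization, and 0.0063 for shTCF1 under the latter. Between hairpin groups HLA-F was 0.0018, 0.022 and 0.027 under 75th percentile scaling, quantile normalization and normexp and 0.027 as a mean of probes, and B2M -0.0050 under quantile normalization. TAP2 for shTCF1 was -0.16 as a mean of probes. Without an array, NLRC5 ran from -0.086 to 0.027 (shGATA3), HLA-F from -0.0012 to 0.27 and TAP2 from -0.013 to 0.061 (shTCF1), and between hairpin groups HLA-F from -0.13 to 0.13, B2M from -0.072 to 0.13, TAP2 from -0.023 to 0.089 and NLRC5 from -0.015 to 0.095. The causes were not tested. Slide and scan as blocks were not run, since all arrays share 1 slide and 1 scan.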
